A study of Mus musculus with 24 samples.

Results

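Male mice at day 56 after reverse remodeling (MAH56, titled MHS + RR) were compared with untreated male mice at day 56 (MC56), with 3 libraries in each group. The genes described are those with at least 1 TPM in at least 3 of these 6 libraries, which were 12423 of the 24972 genes in the table. The unit TPM expresses how abundant a transcript is among all transcripts of its library after correction for transcript length. All mice were C57Bl6/J, and RNA came from the free wall of the left ventricle. MHS is metabolo-hypertensive stress, produced with angiotensin II (AngII) and a high-fat diet (HFD), and RR stands for the reverse remodeling that followed. MC56 mice carry neither treatment in their titles. A further 4 groups of 3 libraries serve as references, namely male controls (MC28) and stressed males (MAH28) at day 28, and female controls (FC56) and females after reverse remodeling (FAH56) at day 56. The age of the mice and the way in which the stress ended are not given in the sources used here. The time and treatment tags go against the titles for 12 of the 24 libraries, MC56 included, and the titles were followed. Since TPM is measured on whole tissue, fewer cells of a type and less RNA per cell cannot be told apart.

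Angiotensin II raises blood pressure and acts directly on the heart, where cardiomyocytes enlarge, fibroblasts deposit collagen and macrophages accumulate. Cardiomyocytes under load re-express genes of the fetal heart, such as those of natriuretic peptides, skeletal alpha-actin and the slow myosin heavy chain. When the load is lifted, the heart loses mass again, a process known as reverse remodeling, and fibrosis is usually the slowest component to regress. Bulk RNA at the end of such a recovery period therefore asks which transcripts are back at the control level and which are not.

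Of the 9 listed cardiomyocyte markers 9 were measured, and they summed to between 92460 and 102300 TPM in the 6 libraries. These values go with heart muscle and were not a test of the ventricular label. MC561 stood apart from the other 5 libraries on the first principal component, which held 46.2% of their variance. The deviations of each library from the mean of all 24 libraries were set against GC content and transcript length. These accounted for 31.8% of the variance of the deviations in MC561 and 27.5% in MAH562, against 6.24% to 7.75% in the other 4 libraries. MAH561 held 57.3 TPM of Myl7, the atrial light chain, whereas the other 5 libraries had at most 2.19 TPM. It also held the highest values of several stress genes described further on. In 1 female library, FAH563, the summed Y-linked genes were at 31.7 TPM, against at most 2.12 TPM in the other female libraries and at least 52 TPM in every male library. The read depth of the libraries is unknown, so no counting error can be given, and n = 3 in each group for all values below.

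Between MAH56 and MC56, 12 genes passed the test at an adjusted p under 0.05, 11 lower and 1 higher after reverse remodeling. This is 0.0919% of the 13058 genes tested (0.0842% lower and 0.00766% higher), by limma on log2(TPM + 1) with Benjamini-Hochberg adjustment. On the log2(TPM + 1) scale, which understates the fold changes of low genes, none of the 12 differed by 2-fold or more. Over all 12423 genes the median log2 difference was -0.04, with quartiles at -0.17 and 0.09, and 58.7% of genes were below 0. At an unadjusted p under 0.05 there were 1813 lower and 479 higher genes. Of the genes tested, 15.0% had TPM ranges in MAH56 wholly below those in MC56 and 4.76% wholly above. The called genes covered antigen presentation, a motor protein light chain, a phosphatase, an angiogenesis inhibitor, a transcription factor of the FoxO family, an esterase, and several RNA-binding and regulatory proteins. Without MAH562, 0 genes were called (1271 genes at an unadjusted p under 0.05), and without MAH563 there were 210. With only the 6 libraries compared, or only the 12 male libraries, in the fit, 0 genes were called (1528 and 1891 at an unadjusted p under 0.05), so the 12 calls rest on a spread estimated over all 24 libraries.

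Cd74, the invariant chain that escorts MHC class II molecules to the endosome, was at 251, 196 and 274 TPM in MC56 and 123, 118 and 118 TPM in MAH56. The 3 MAH56 libraries lay close together and every one was below the lowest control. Cd74 fell by 0.99 ± 0.15 on the log2 scale (adjusted p = 0.0119), the largest fall among the called genes named here. Dynll2, a light chain shared by dynein and myosin V motors, was at 426, 447 and 398 TPM in MC56 and 286, 224 and 289.9 TPM in MAH56. Dynll2 was the most abundant called gene, and its groups did not overlap. It fell by 0.67 ± 0.10 (adjusted p = 0.0119).

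Dusp8, a phosphatase that inactivates the stress-activated kinases JNK and p38, was at 22.9, 27.3 and 24 TPM in MC56 and 14.7, 13.8 and 14.6 TPM in MAH56. The ranges were well apart, and Dusp8 fell by 0.74 ± 0.11 (adjusted p = 0.0119). Vash1 encodes vasohibin, an angiogenesis inhibitor that removes the terminal tyrosine of alpha-tubulin, and was at 14.8, 16.7 and 12.4 TPM in MC56 and 6.86, 6.55 and 8.56 TPM in MAH56. All 3 recovered libraries were below all 3 controls. Vash1 fell by 0.91 ± 0.14 (adjusted p = 0.0126).

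Foxo4, a FoxO transcription factor that is restrained by insulin signaling, was at 42.6, 46.1 and 39.1 TPM in MC56 and 29, 22.1 and 29.8 TPM in MAH56. MAH562 was the lowest of the 6 libraries, and the groups did not overlap. Foxo4 fell by 0.65 ± 0.12 (adjusted p = 0.0436). Litaf, a regulator of endosomal trafficking that was first described through the induction of TNF, was at 21.3, 19.3 and 17.6 TPM in MC56 and 13.8, 12.6 and 14.1 TPM in MAH56, a fall of 0.49 ± 0.08 (adjusted p = 0.0207). Ces1d, a carboxylesterase with triacylglycerol hydrolase activity, was at 119.9, 143 and 147 TPM in MC56 and 75.7, 88.4 and 99.9 TPM in MAH56. The highest recovered library remained below the lowest control, and Ces1d fell by 0.63 ± 0.11 (adjusted p = 0.0207).

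Fam98b, a subunit of the tRNA ligase complex, was at 28.7, 22.9 and 21.6 TPM in MC56 and 11.3, 11.5 and 13.9 TPM in MAH56, a fall of 0.94 ± 0.17 (adjusted p = 0.0436). Lsm14b, an RNA-binding protein of messenger ribonucleoprotein granules, was at 57.6, 48.9 and 52.5 TPM in MC56 and 40.6, 37.1 and 42.9 TPM in MAH56, a fall of 0.39 ± 0.08 (adjusted p = 0.0495). Ncoa5, a nuclear receptor coregulator, was at 18.2, 18 and 16.7 TPM in MC56 and 12.9, 13.1 and 13.6 TPM in MAH56, and fell by 0.39 ± 0.07 (adjusted p = 0.0436). In all 3 genes the libraries of the groups were separate. The 1 gene that rose was Nme3, a nucleoside diphosphate kinase of the mitochondrial outer membrane, at 26.9, 28.3 and 25.3 TPM in MC56 and 39.2, 36.8 and 33.8 TPM in MAH56. Its log2 difference was 0.43 ± 0.08 (adjusted p = 0.0436), and no library of one group reached the other.

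**Figure D1:**
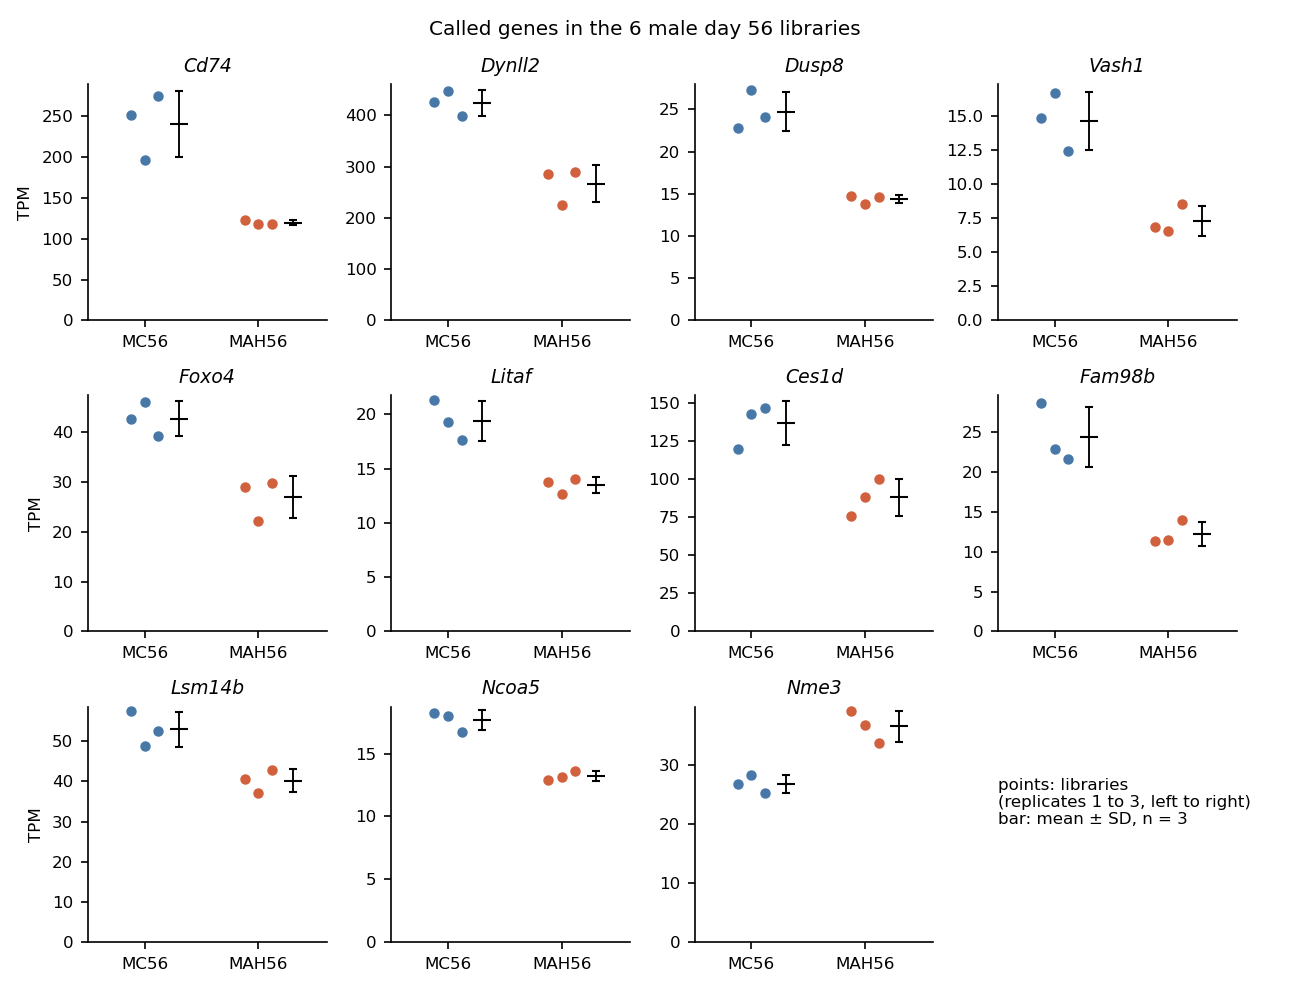
TPM (y axis, linear from 0) of 11 called genes in the 3 MC56 and 3 MAH56 libraries (points), with the mean and SD of each group (bars, n = 3). In each gene the libraries of the groups are separate. Nme3 alone is higher in MAH56, and Cd74 is at 118 to 123 TPM in MAH56 against 196 to 274 TPM in MC56.

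Most of the called genes had not been called at day 28, while the stress was present. Among the 11 genes named above, only Ces1d and Nme3 were called at day 28, Ces1d lower (-1.01, adjusted p = 1.15e-05) and Nme3 higher (0.34, adjusted p = 0.0107). In MC28 and MAH28 the means of Vash1 were 13.3 ± 2.29 TPM (SD) in MC28 and 15 ± 2.44 TPM in MAH28, and its day 28 difference was 0.17 (adjusted p = 0.526). Dusp8 had a day 28 difference of 0.12 (adjusted p = 0.598), and Cd74 one of -0.14 (adjusted p = 0.625). A test of the day 56 difference minus the day 28 difference, which share no library, passed for 8 of the 11 genes (7.21% of all genes passed toward lower and 1.13% toward higher). Since these genes were chosen by their day 56 difference, a difference of effects in that direction follows in part from the choice, and the values are a description. The values were -1.08 for Vash1 (adjusted p = 0.00463), -0.86 for Dusp8 (adjusted p = 0.00463), -0.55 for Litaf (adjusted p = 0.00938), -0.62 for Dynll2 (adjusted p = 0.0139), -0.75 for Foxo4 (adjusted p = 0.0138), -0.85 for Cd74 (adjusted p = 0.02), -0.40 for Ncoa5 (adjusted p = 0.0237) and -0.83 for Fam98b (adjusted p = 0.0409). For Ces1d (0.38, adjusted p = 0.116), Nme3 (0.09, adjusted p = 0.67) and Lsm14b (-0.21, adjusted p = 0.218) it did not pass.

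The fall of Cd74 came with low values of the MHC class II genes, which antigen-presenting cells such as macrophages, dendritic cells and B cells use to show peptides to CD4+ T cells. Their transcription depends on the coactivator CIITA, which is recruited by factors bound at the X and Y boxes of their promoters. Of 13 listed genes, 9 were measured, all 9 had negative log2 differences, and their median was -0.78 against -0.04 over all genes. Of the 9, 1 was called lower (Cd74) and 7 were lower at an unadjusted p under 0.05 (0.0842% and 14.1% of all genes tested). Ranges lay below those of the controls in 6 of the 9 (15.0% of all genes tested).

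Promoter sequences are shown for 3 of the 4 genes in which letters of the Y and X boxes, shared elements of class II promoters, were both found, the fourth being H2-DMb2. They come from the RefSeq table of GRCm38.p6, which was not the build of the deposited values, and run from 250 bases before to 50 bases after the annotated start of each gene. Of the 9 genes, 7 had an entry. Capitals mark GATTGG (the core letters of the Y box, shown as CCAATC where they lie on the other strand) and ACNGATG (letters within the X box). The search covered both strands, these motifs do not overlap each other in the sequences shown, and their letters were set after the sequences had been seen.
H2-Aa, chr17:34287774-34288073, minus strand: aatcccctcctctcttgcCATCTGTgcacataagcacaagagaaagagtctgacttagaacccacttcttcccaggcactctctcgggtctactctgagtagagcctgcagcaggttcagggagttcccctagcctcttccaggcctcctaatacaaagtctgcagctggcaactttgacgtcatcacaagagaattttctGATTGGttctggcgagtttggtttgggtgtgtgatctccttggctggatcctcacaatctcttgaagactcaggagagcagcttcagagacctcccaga
H2-Eb1, chr17:34305617-34305916, plus strand: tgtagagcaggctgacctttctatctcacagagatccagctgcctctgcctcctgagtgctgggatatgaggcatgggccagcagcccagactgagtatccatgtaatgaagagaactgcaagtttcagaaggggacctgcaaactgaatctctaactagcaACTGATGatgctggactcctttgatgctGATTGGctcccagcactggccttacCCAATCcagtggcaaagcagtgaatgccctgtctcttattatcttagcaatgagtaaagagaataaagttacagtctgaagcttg
H2-DMb1, chr17:34152941-34153240, plus strand: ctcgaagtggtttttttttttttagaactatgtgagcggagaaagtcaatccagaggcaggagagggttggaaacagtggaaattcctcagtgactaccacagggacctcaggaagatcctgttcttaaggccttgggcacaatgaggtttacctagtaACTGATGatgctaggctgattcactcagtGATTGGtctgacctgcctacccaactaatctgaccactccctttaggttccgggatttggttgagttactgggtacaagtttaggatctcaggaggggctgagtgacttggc
GATTGG was found in the promoters of 5 of the 7 genes and in 16.1% of the 32851 promoters in the table. A gene was counted if any of its entries matched (8 entries for the 7 genes), whereas the shares over all promoters count single entries. ACNGATG was found in 5 of the 7 and in 9.85% of all promoters. In H2-Eb1 and H2-DMb1 it lies shortly before GATTGG, and in H2-Aa it lies on the other strand (CATCTGT), far from it. The H2-Aa match is counted among the 5 by its letters alone and is not taken as an X box. A match of letters is a description and not a measured binding site.

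The alpha chain gene H2-Aa was at 95.9, 72.7 and 107 TPM in MC56 and 50.2, 50.8 and 43.1 TPM in MAH56. Its partner, the beta chain gene H2-Ab1, was at 72.2, 52.2 and 85.4 TPM in MC56 and 41.3, 40.8 and 36.7 TPM in MAH56. H2-Eb1, the beta chain of the other class II molecule, was at 53.1, 41.5 and 54.1 TPM in MC56 and 27.1, 29.8 and 24.2 TPM in MAH56. In all 3 genes the recovered libraries were below every control, with log2 differences of -0.91 ± 0.19, -0.78 ± 0.17 and -0.85 ± 0.20, and none was called (adjusted p = 0.0586, 0.0605 and 0.0666 by limma). H2-DMb1, a chain of the chaperone that loads peptides, was at 7.07, 5.64 and 8.3 TPM in MC56 and 3.9, 3.25 and 2.64 TPM in MAH56. Its log2 difference was -0.91 ± 0.24, again without overlap of the groups. Its partner H2-DMa overlapped by a narrow margin, at 6.06, 3.58 and 6.62 TPM in MC56 and 3.59, 2.87 and 2.08 TPM in MAH56. Ctss, the protease cathepsin S that trims the invariant chain, was at 34.6, 27.4 and 28.3 TPM in MC56 and 21.1, 23.8 and 18.8 TPM in MAH56, a log2 difference of -0.48 ± 0.18. The 2 remaining genes, H2-DMb2 (-0.45 ± 0.35) and Ifi30 (-0.15 ± 0.18), had overlapping groups.

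The class II genes were not high in the stressed males at day 28, where their median difference was -0.13 and 0 of 9 were called. Without MC561 and MAH562, the 2 of the 6 libraries with the strongest GC and length pattern, their median at day 56 was -0.76. After correction for GC and length it was -0.80. Leaving out single libraries of the 6 gave medians between -0.97 and -0.71 for the class II list. The 15 genes of the MHC class I pathway, which nearly all cells use, had a median of -0.03. At an unadjusted p under 0.05, 3 were lower and 1 higher (14.1% and 3.87% over all genes). B2m, the light chain of class I molecules, was at 999, 788 and 1055 TPM in MC56 and 798, 744 and 672 TPM in MAH56, and its ranges overlapped. Psmb10, a subunit of the immunoproteasome, lay on the higher side at 59.5, 63 and 43.2 TPM in MC56 and 75, 80.02 and 64.5 TPM in MAH56, a log2 difference of 0.41 ± 0.11, and was not called.

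Macrophage markers lay on the lower side as well. Of 24 measured markers, 20 had negative differences and 0 were called. Of these 24, 12 were lower at an unadjusted p under 0.05 (14.1% over all genes) and 10 had separate ranges (15.0%). Their median was -0.31, and their summed level was 952, 747 and 762 TPM in MC56 and 722, 643 and 565 TPM in MAH56, without overlap. Cd163, the haemoglobin scavenger receptor of resident macrophages, was at 8.12, 8.32 and 8.8 TPM in MC56 and 5.45, 4.15 and 4.49 TPM in MAH56. Adgre1, which encodes F4/80, was at 10.8, 9.24 and 8.81 TPM in MC56 and 6.4, 5.44 and 6.02 TPM in MAH56. Both had groups that were well separated, with log2 differences of -0.73 ± 0.17 and -0.61 ± 0.16. Cx3cr1, the fractalkine receptor, was at 2.44, 3.47 and 3.4 TPM in MC56 and 1.81, 1.62 and 1.27 TPM in MAH56 (-0.67 ± 0.19). The complement genes C1qa, C1qb and C1qc, made in the heart largely by macrophages, had differences of -0.32 ± 0.14, -0.41 ± 0.16 and -0.37 ± 0.14. The list did not fall evenly, and Lyve1, Timd4 and Trem2 had overlapping groups. Lyve1 was at 21, 21.3 and 18.6 TPM in MC56 and 23, 22.8 and 18.75 TPM in MAH56. Timd4 was at 2.992, 2.635 and 3.467 TPM in MC56 and 2.955, 2.663 and 3.03 TPM in MAH56. Trem2 was at 4.03, 3.11 and 3.65 TPM in MC56 and 5.14, 5.56 and 3.26 TPM in MAH56. Without MC561 and MAH562 the macrophage median was -0.23 and 5 of 24 remained under an unadjusted p of 0.05. Without MC561 alone it was -0.22, with 6 of 24.

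Other antigen-presenting cells were measured less well. Of 12 dendritic cell markers 4 were measured, and their defining genes Flt3, Xcr1 and Clec9a were near 0 in all 6 libraries. The summed dendritic markers were 66.2, 60.8 and 52.4 TPM in MC56 and 39.7, 43.5 and 47.5 TPM in MAH56. Fscn1, an actin-bundling protein of dendritic cells that endothelium also expresses, made up most of this sum, at 43.4, 39.3 and 33.8 TPM in MC56 and 24, 29.2 and 30.4 TPM in MAH56. Of the 12 B cell markers 2 were measured, and Cd79a, part of the B cell receptor, was at 1.42, 2.17 and 1.8 TPM in MC56 and 4.01, 2.65 and 3.13 TPM in MAH56, without overlap. Its partner Cd79b was at 2.23, 1.37 and 1.74 TPM in MC56 and 1.37, 1.92 and 1.71 TPM in MAH56, with overlap, and neither was called. The part of macrophages and other cell types in the MHC class II difference was not tested.

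**Figure D2:**
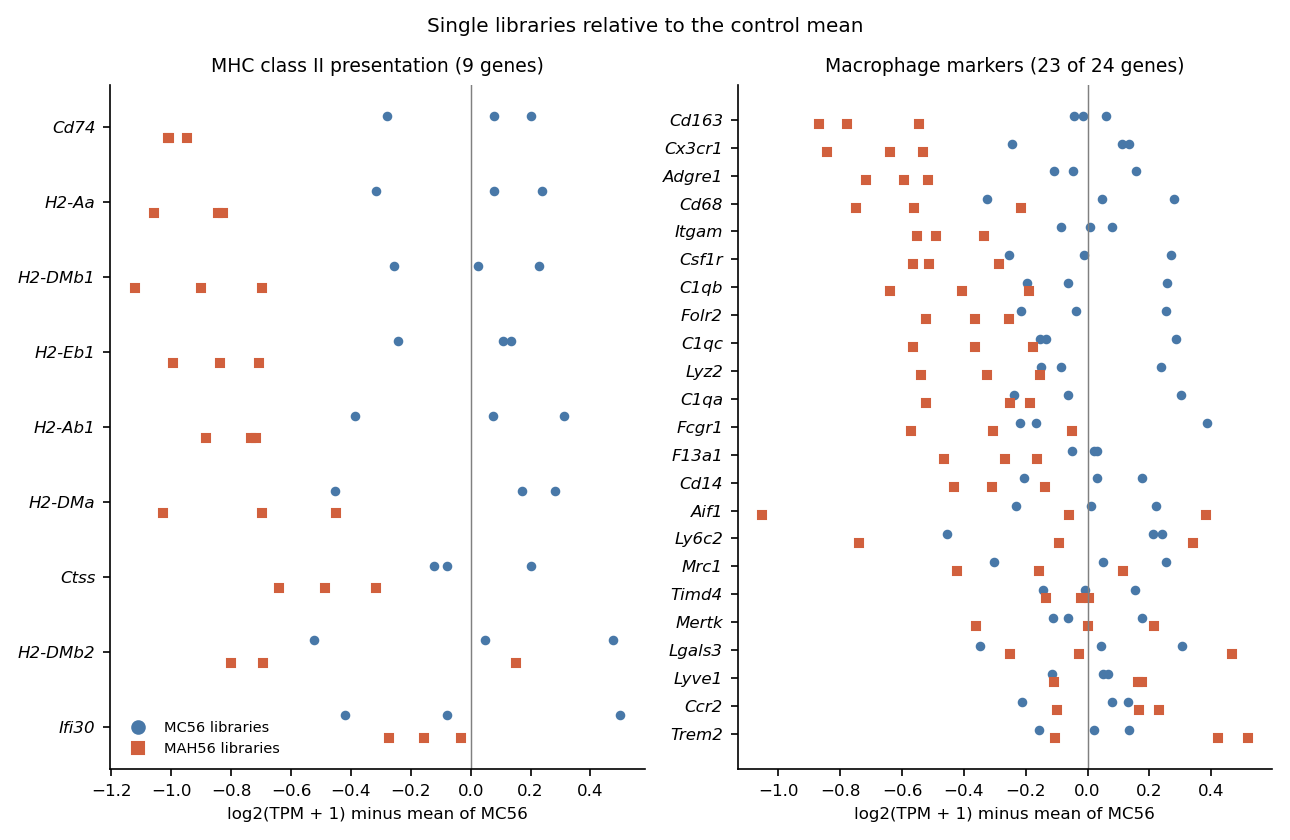
log2(TPM + 1) of single libraries minus the MC56 mean (x axis) for 9 MHC class II genes (left) and 23 of the 24 macrophage markers (right), with MC56 libraries as circles and MAH56 libraries as squares. The recovered libraries of H2-Aa, H2-Ab1, H2-Eb1, H2-DMb1, Cd74 and Ctss lie below all controls, as do those of Cd163 and Adgre1.

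Most collagen genes lay below the untreated level at day 56. Of 19 measured collagens 18 had negative log2 differences, with a median of -0.38, and 0 were called. Of these 19, 9 were lower at an unadjusted p under 0.05 (14.1% over all genes) and 10 had separate ranges (15.0%). Col1a1, the main chain of fibrillar collagen I, was at 50.4, 43.8 and 50 TPM in MC56 and 37, 25.2 and 33.7 TPM in MAH56. Col3a1, the chain of collagen III, was at 93.3, 103 and 103 TPM in MC56 and 61.9, 53.8 and 61.7 TPM in MAH56. Each recovered library was below each control for both genes, with log2 differences of -0.59 ± 0.25 and -0.75 ± 0.28 (adjusted p = 0.229 and 0.175). Col15a1, a collagen found next to basement membranes, was at 52.8, 57.5 and 60.2 TPM in MC56 and 41, 35.8 and 37.8 TPM in MAH56 (-0.56 ± 0.13). Col6a2, of the beaded collagen VI filaments, was at 60.8, 60.3 and 66.4 TPM in MC56 and 46.1, 43.5 and 45.6 TPM in MAH56 (-0.46 ± 0.11), and Col4a1, of the basement membrane network, at 189.5, 215 and 158 TPM in MC56 and 134, 113 and 136 TPM in MAH56 (-0.55 ± 0.16). Again no library of one group reached the other.

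At day 28 the same list had stood at a median of 0.70, with 16 of 19 collagens called higher in MAH28 (7.71% of all genes tested were called higher). The difference between the day 56 and day 28 effects was called lower for 13 of 19 (7.21% of all genes). Col1a1 was at 43.4 ± 5.11 TPM (SD) in MC28 and 90.03 ± 15.4 TPM in MAH28, and its difference of effects was -1.62 (adjusted p = 0.0106). For Col15a1 the value was -1.27 (adjusted p = 0.000949) and for Col6a2 -1.07 (adjusted p = 0.000915). In females after reverse remodeling 11 of 19 collagens were called lower, with a median of -0.77 (4.56% of all genes were called lower there and 0.544% higher). Without FAH563, 9 of the 19 were called lower, with a median of -0.80 for the fibrillar and other collagens. In males the GC and length correction moved the collagen median to -0.25, and leaving out MAH562 moved it to -0.28, with 5 of 19 under an unadjusted p of 0.05.

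Genes that process and crosslink collagen were partly low. Of 18 measured, 6 were lower at an unadjusted p under 0.05 (14.1% over all genes) and the median was -0.11. Loxl2, a lysyl oxidase that starts crosslinks, was at 12.9, 12.5 and 12.2 TPM in MC56 and 8.92, 6.89 and 7.45 TPM in MAH56. Serpinh1, the collagen chaperone of the endoplasmic reticulum, was at 212, 189 and 219.8 TPM in MC56 and 159, 139 and 173 TPM in MAH56. The ranges did not overlap in either gene, and the log2 differences were -0.63 ± 0.18 and -0.40 ± 0.10. Loxl1 (-0.35 ± 0.13) and the procollagen peptidase Adamts2 (-0.44 ± 0.16) followed. The 12 of 18 that had been called higher at day 28 (7.71% over all genes) included these 4. Without MC561, 2 of 18 stayed under an unadjusted p of 0.05.

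The basement membrane is the sheet of laminin, nidogen, perlecan and collagen IV that surrounds cardiomyocytes and capillaries. Of its 13 genes 7 were lower at an unadjusted p under 0.05 (14.1% over all genes), and the median was -0.27. Lamc1, the gamma chain shared by most laminins, was at 82.7, 72.9 and 80.6 TPM in MC56 and 58.8, 44 and 62.5 TPM in MAH56. Nid1, nidogen, which links laminin to collagen IV, was at 74.2, 59.3 and 68.9 TPM in MC56 and 50.5, 38 and 51.3 TPM in MAH56. Hspg2, the core protein of perlecan, was at 107, 103 and 101 TPM in MC56 and 79.8, 55.5 and 82.2 TPM in MAH56. For these genes, as for Lama4 (-0.39 ± 0.10), Lamb1 (-0.33 ± 0.08) and Nid2 (-0.41 ± 0.10), the groups were separate, with MAH562 the lowest library. The laminin beta chains Lamb2, at 149.8, 148 and 158 TPM in MC56 and 157, 121 and 158 TPM in MAH56, and Lamb3, at 6.59, 5.08 and 6.61 TPM in MC56 and 6.37, 6.37 and 6.6 TPM in MAH56, had overlapping groups. The list median was -0.13 without MAH562 and -0.12 after GC and length correction. Wider matrix lists were less uniform. Mmp15, a membrane-bound matrix protease, was at 94.2, 82.2 and 79 TPM in MC56 and 59.3, 56.4 and 74.8 TPM in MAH56, and Ltbp4, which binds latent TGF-beta to microfibrils, was at 215, 191 and 182 TPM in MC56 and 158, 128 and 156 TPM in MAH56. Both had separate groups, with differences of -0.42 ± 0.11 and -0.42 ± 0.09. The fibroblast markers, many of which are matrix genes, had a median of -0.11. Of the 15, 4 were lower at an unadjusted p under 0.05 (14.1% over all genes).

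Wall stress genes were on the higher side at day 56 in single libraries. Of 19 measured, 17 had been called higher at day 28 (7.71% over all genes) with a median of 0.98, and at day 56 the median was 0.14, with 4 higher and 1 lower at an unadjusted p under 0.05 (3.87% and 14.1% over all genes) and 0 called. Myh7, the slow myosin heavy chain, was at 38.4, 30.1 and 39.95 TPM in MC56 and 197, 75.8 and 77 TPM in MAH56. Every recovered library was above every control, and MAH561 stood far above the other 2. The log2 difference was 1.52 ± 0.51 (adjusted p = 0.138), against 2.43 at day 28 (adjusted p = 0.00396). Acta1, skeletal alpha-actin, was at 287, 1067 and 642 TPM in MC56 and 993, 1338 and 896 TPM in MAH56, so that the groups overlapped, with a difference of 0.86 ± 0.40 (adjusted p = 0.256). The natriuretic peptide genes Nppa, at 174, 433 and 180.3 TPM in MC56 and 619, 541 and 302 TPM in MAH56, and Nppb, at 336, 752 and 268 TPM in MC56 and 678, 603 and 329.5 TPM in MAH56, varied 2-fold or more within the control group. Their differences were 0.96 ± 0.49 and 0.33 ± 0.35. Ankrd1, a titin-bound stress sensor, was at 835, 1346 and 1101 TPM in MC56 and 1619.7, 1244 and 828 TPM in MAH56, so that the groups overlapped with 1 recovered library above and 1 below all controls, after a day 28 difference of 1.52. Csrp3 (0.17 ± 0.06) and Fhl2 (0.16 ± 0.06), LIM proteins of the Z disc, had recovered libraries just above all controls.

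Matricellular genes, whose products modulate the matrix without building it, showed the same library. Of 19 measured, 13 had been called higher at day 28 (7.71% over all genes) with a median of 1.29, and the day 56 median was -0.0017, with 0 called. Thbs4, thrombospondin 4, was at 2.68, 2.52 and 3.13 TPM in MC56 and 14.1, 3.5 and 5.69 TPM in MAH56. Cilp, a cartilage matrix protein that fibroblasts make under load, was at 11.1, 10.6 and 6.6 TPM in MC56 and 22.3, 6.95 and 12.1 TPM in MAH56. Comp, another thrombospondin, was at 1.91, 1.52 and 2.05 TPM in MC56 and 19.5, 2 and 7.26 TPM in MAH56. MAH561 was the highest library in each, MAH562 was near or within the control range, and the log2 differences of 1.03 ± 0.59, 0.39 ± 0.42 and 1.50 ± 0.76 came with adjusted p = 0.361, 0.637 and 0.305. Ltbp2 (1.05, 1.32 and 1.15 TPM in MC56 and 5.27, 1.3 and 2.07 TPM in MAH56) and Postn, periostin (17, 25.6 and 17.1 TPM in MC56 and 41.4, 22.7 and 23.6 TPM in MAH56), had the same order of libraries. Without MAH561 the matricellular median was -0.14. MAH561 was also the library with atrial Myl7 and Myl4 (60.7 TPM, against 2.32 and 2.4 TPM in the other recovered libraries) and with the smooth muscle gene Tagln at 96.7 TPM. The part of atrial or vascular tissue in its stress gene values was not tested. Thbs1, thrombospondin 1, had overlapping groups at 5.78, 5.7 and 4.77 TPM in MC56 and 7.08, 2.85 and 3.32 TPM in MAH56, after a day 28 difference of 2.07. For the proteoglycan gene Bgn, biglycan, at 296, 241 and 259 TPM in MC56 and 273, 190.5 and 202 TPM in MAH56, the difference of effects was -1.56 (adjusted p = 0.000903).

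**Figure D3:**
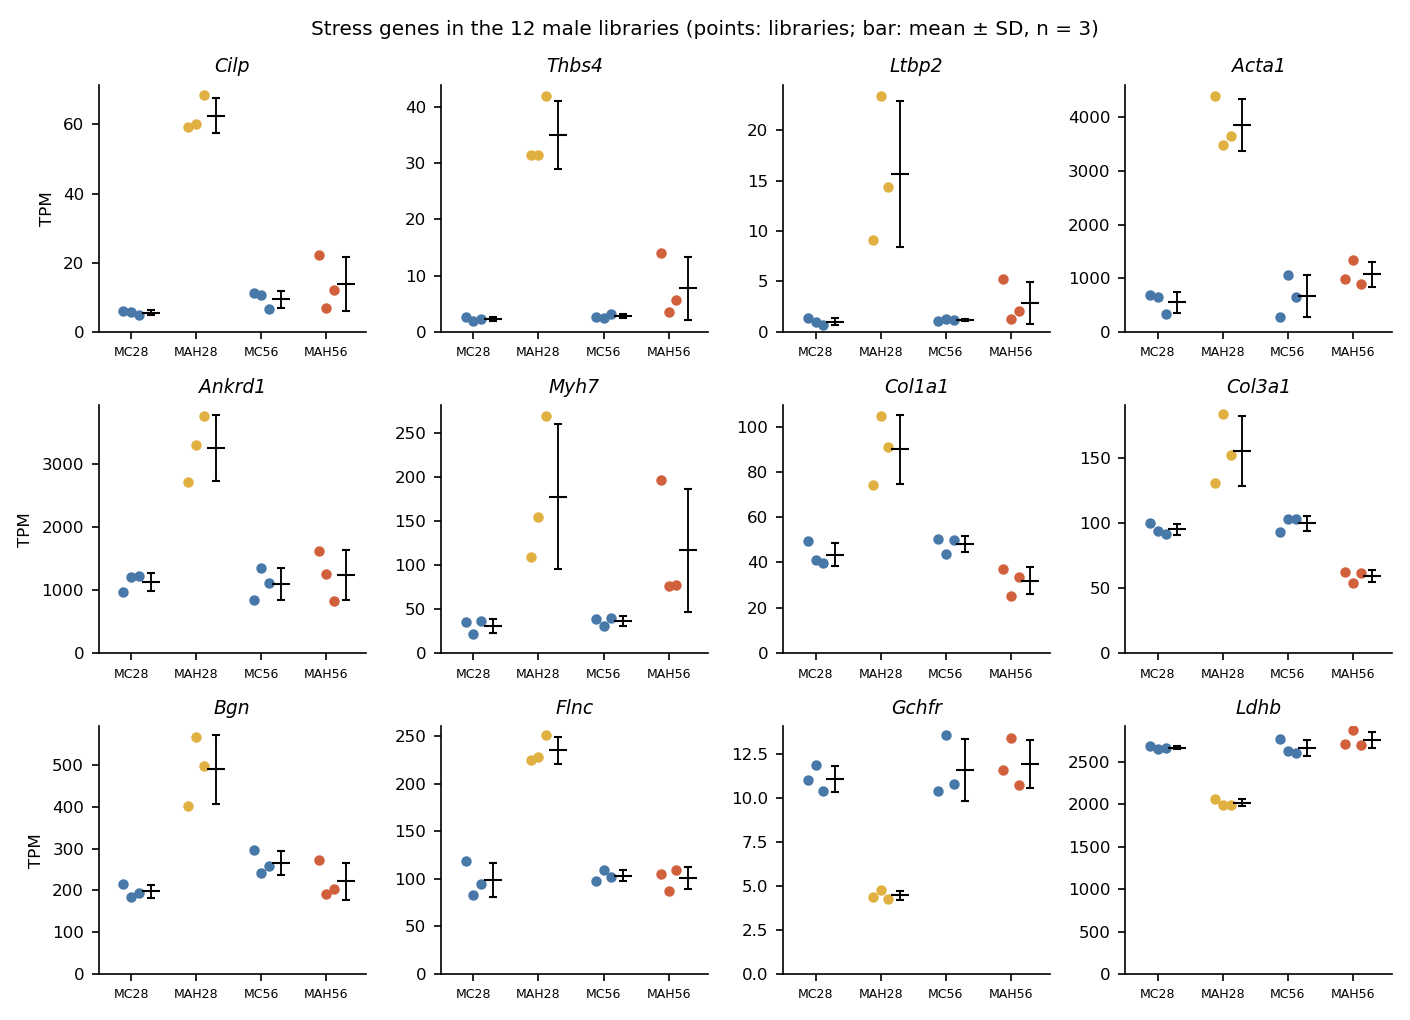
TPM (y axes, linear from 0) of 12 genes in the 12 male libraries (points), with the mean and SD of each group (bars, n = 3). Cilp, Thbs4 and Ltbp2 are high in all MAH28 libraries and in MAH561, Col1a1 and Col3a1 are lower in MAH56 than in MC56, and Gchfr and Ldhb are low in MAH28 and among the controls in MAH56.

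The genes called at day 28 were followed as groups. The 959 genes called higher in MAH28 had a median difference of 0.50 at day 28 and -0.05 at day 56, where 364 were above 0 and 595 below. The 1 gene among them called higher at day 56 was Nme3. At an unadjusted p under 0.05, 56 were higher and 156 lower. The 323 genes called lower in MAH28 had a median of -0.42 at day 28 and -0.05 at day 56, with 109 above 0 and 214 below, and 2 of them were called lower at day 56, Ces1d and 1 gene not reported here. Over all 12423 genes the day 28 and day 56 differences had a Pearson r of 0.03 and a Spearman rho of -0.01, given as a description across genes, which are not independent. After GC and length correction the medians at day 56 were 0.0047 and -0.03.

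**Figure D4:**
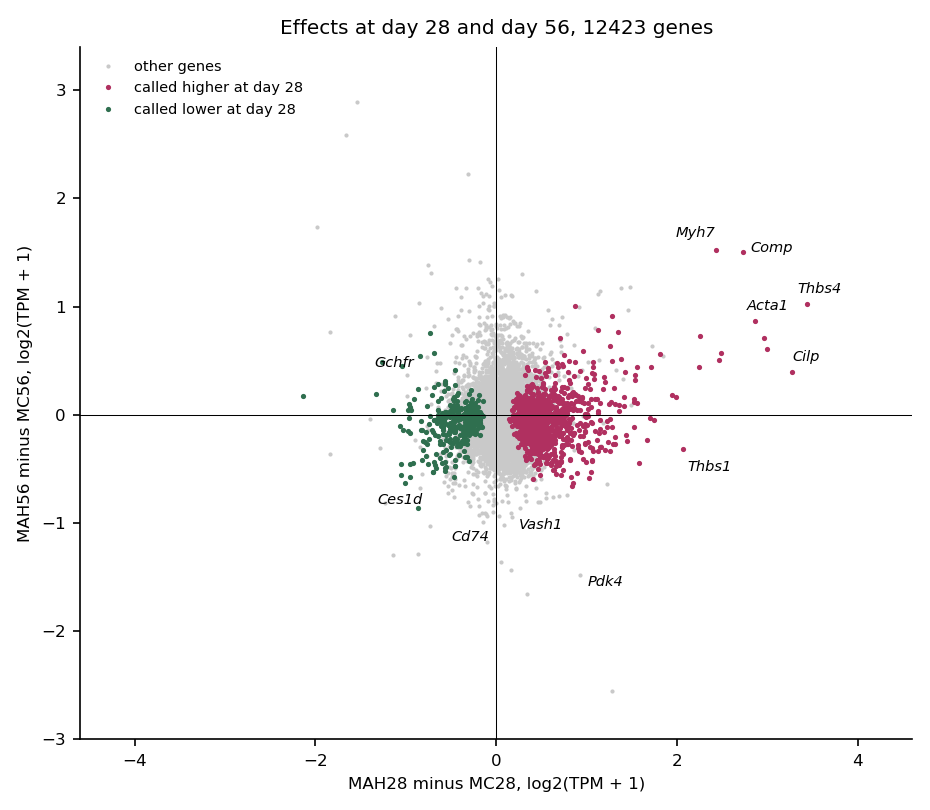
Log2 difference of 12423 genes at day 28 (x axis) and day 56 (y axis), each on the log2(TPM + 1) scale. Genes called higher (959) or lower (323) at day 28 are coloured, and both groups lie around 0 on the day 56 axis, with medians of -0.05.

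Whether the effect at day 56 differed from that at day 28 was tested directly. Of 13058 genes 1088 were called (147 with a more positive and 941 with a more negative effect at day 56), of which 1065 are among the 12423 genes described. For genes picked by their day 28 call the direction of this difference follows in part from the choice. Of the 959 genes called higher at day 28, 535 had a called difference, and of the 323 called lower, 104, all toward the opposite sign of the day 28 effect. The split depended on scaling. The median of the difference over all genes was -0.11, and it moved to 0.02 under median-of-ratios scaling, under which 652 genes were called, 230 more positive and 422 more negative. Quantile normalization gave 224 and 408, and the GC and length correction gave 310 and 361. Relative to the shift of 0.13 between TPM and median-of-ratios scaling, the genes named next differ by far more.

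Among the genes with the lowest adjusted p were muscle repair, cytoskeletal and chaperone genes. Flnc, filamin C of the Z disc, had means of 98.7 ± 18.1 TPM (SD) in MC28 and 235 ± 14.4 TPM in MAH28 and was at 98, 109 and 102 TPM in MC56 and 105, 87.2 and 109.7 TPM in MAH56. Trim72, a membrane repair protein, had means of 303 ± 21.5 TPM (SD) in MC28 and 426 ± 12.3 TPM in MAH28 and was at 329, 320.2 and 322 TPM in MC56 and 282, 278 and 285 TPM in MAH56. At day 56 the groups overlapped for Flnc, with MAH562 below all controls, and did not overlap for Trim72. Their differences of effects were -1.30 (adjusted p = 0.000588) and -0.69 (adjusted p = 0.000588). Cd34, a sialomucin of endothelium and fibroblasts, was at 141, 134 and 129.8 TPM in MC56 and 113, 109 and 107 TPM in MAH56, below all controls, after a day 28 difference of 0.48. Its difference of effects was -0.77 (adjusted p = 0.000588). Cmklr1, the chemerin receptor, was at 17.7, 12.9 and 15.8 TPM in MC56 and 11.1, 9.57 and 7.72 TPM in MAH56, again below all controls, with -1.50 (adjusted p = 0.000903). Ace, the converting enzyme that makes angiotensin II, was at 46.5, 36.7 and 37.9 TPM in MC56 and 33.8, 25.7 and 29 TPM in MAH56 at day 56 with separate groups and had means of 33.9 ± 3.92 TPM (SD) in MC28 and 56.5 ± 5.99 TPM in MAH28. Its effect changed from 0.72 to -0.44 ± 0.13, a difference of -1.16 (adjusted p = 0.00134).

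In the opposite direction stood genes that had been low under stress and were at the control level at day 56. Gchfr, the feedback regulator of tetrahydrobiopterin synthesis, had means of 11.1 ± 0.757 TPM (SD) in MC28 and 4.48 ± 0.264 TPM in MAH28 and was at 10.4, 13.6 and 10.8 TPM in MC56 and 11.6, 13.5 and 10.8 TPM in MAH56 at day 56. Its day 56 groups overlapped, and the difference of effects was 1.19 (adjusted p = 0.000588). Scgb1c1, a secretoglobin, was at 49.2, 45.9 and 69.96 TPM in MC56 and 73.7, 94.5 and 63.8 TPM in MAH56 (1.75, adjusted p = 0.0029), and Lrrc4b, a synaptic adhesion molecule, at 15.6, 19.9 and 16.3 TPM in MC56 and 20.4, 17.9 and 21 TPM in MAH56 (1.52, adjusted p = 0.00357). Ldhb, the lactate dehydrogenase subunit of oxidative muscle, had a difference of effects of 0.46 (adjusted p = 0.000915), and Myl2, the ventricular light chain, one of 0.52 (adjusted p = 0.00126).

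Immediate early genes, which are transcribed soon after a stimulus, lay on the lower side throughout. All 19 measured had negative differences at day 56, with a median of -0.37, and 0 were called. Of these 19, 7 were lower at an unadjusted p under 0.05 (14.1% over all genes) and 10 had separate ranges (15.0%). Fosl2, an AP-1 subunit, was at 16.3, 12.9 and 14.1 TPM in MC56 and 8.53, 6.04 and 8.83 TPM in MAH56. Sik1, a salt-inducible kinase, was at 25.3, 21.1 and 23.6 TPM in MC56 and 15.4, 9.95 and 10.6 TPM in MAH56. In both genes the libraries of the groups were separate, with differences of -0.82 ± 0.18 and -0.93 ± 0.25 (adjusted p = 0.0586 and 0.0832). Atf3, a stress-induced repressor, was at 6.88, 5.96 and 6.61 TPM in MC56 and 2.87, 3.39 and 1.97 TPM in MAH56 (-1.02 ± 0.36), and Nr4a1, an orphan nuclear receptor, at 24.1, 25 and 38.4 TPM in MC56 and 19.4, 8.24 and 8.4 TPM in MAH56 (-1.29 ± 0.51). In Nr4a1 the recovered library MAH561 was near the controls and the other 2 were far below. Leaving out single libraries gave medians between -0.42 and -0.35 for the list, with between 3 (without MAH563) and 8 of 19 under an unadjusted p of 0.05. These transcripts respond to handling and to the time of day as well, which the labels do not give.

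The phosphatases and feedback inhibitors that end MAP kinase signaling formed a group around Dusp8. Of 15 measured, 1 was called lower (0.0842% over all genes), 7 were lower at an unadjusted p under 0.05 (14.1%), 8 had separate ranges below the controls (15.0%), and the median was -0.21. Dusp16, another phosphatase of JNK and p38, was at 13.6, 12.8 and 11.2 TPM in MC56 and 10.2, 8.45 and 8.87 TPM in MAH56. Dusp5, a nuclear phosphatase of ERK, was at 10.7, 8.51 and 8.82 TPM in MC56 and 4.5, 5.15 and 5.03 TPM in MAH56. Dusp18 was at 45.7, 40 and 37 TPM in MC56 and 29, 26.8 and 30.8 TPM in MAH56. No overlap occurred in any of the 3, with log2 differences of -0.41 ± 0.10, -0.81 ± 0.23 and -0.49 ± 0.12. After GC and length correction the list median was -0.08, and Dusp8 kept a difference of -0.61.

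Heat shock genes of the cytosol divided. Of 20 measured, 10 had been called higher at day 28 (7.71% over all genes), and 7 were lower at an unadjusted p under 0.05 at day 56 (14.1%), with a median of -0.07. Bag3, a cochaperone that clears damaged filamin in the Z disc, was at 306, 293 and 331 TPM in MC56 and 235, 230.3 and 244 TPM in MAH56. Hspa8, the constitutive chaperone HSC70, was at 1818, 1657 and 1868 TPM in MC56 and 1412, 1411 and 1505 TPM in MAH56. Dnajb5, a cochaperone of the Hsp40 family, was at 54.4, 58.2 and 57.4 TPM in MC56 and 43.5, 42 and 39.8 TPM in MAH56. The groups were separate in all 3, with differences of -0.39 ± 0.08, -0.30 ± 0.08 and -0.43 ± 0.10. Dnajb1 (19, 11.7 and 14.7 TPM in MC56 and 9.42, 9.7 and 9.5 TPM in MAH56) and Dnaja4 (91.6, 98.5 and 85.2 TPM in MC56 and 76.6, 74.1 and 82 TPM in MAH56), of the same family, had separate groups too. The differences of effects were called for Bag3 (-0.75, adjusted p = 0.00126), Hspa8 (-0.54, adjusted p = 0.00601) and Dnaja4 (-0.67, adjusted p = 0.000588). Endoplasmic reticulum chaperones had a median of -0.12, with 2 of 19 lower at an unadjusted p under 0.05 (14.1% over all genes).

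Endothelial genes were moderately low, and the size of their median depended on 1 library. Of 16 measured markers 6 were lower at an unadjusted p under 0.05 (14.1% over all genes). The median of the 16 was -0.20, which became -0.08 without MAH562 and -0.05 after GC and length correction. Pecam1, the junctional protein CD31, was at 127, 119 and 113 TPM in MC56 and 102, 88.1 and 99 TPM in MAH56. Eng, endoglin, a TGF-beta co-receptor, was at 131, 122 and 126 TPM in MC56 and 112, 95.3 and 102 TPM in MAH56. The groups were separate in both, with differences of -0.31 ± 0.08 and -0.29 ± 0.08. Kdr, the main receptor of VEGF, was at 111, 123 and 91.3 TPM in MC56 and 80.1, 71.7 and 94.3 TPM in MAH56 and overlapped. Among 21 angiogenic genes the median was -0.18, and 6 were lower at an unadjusted p under 0.05 (14.1% over all genes). Vash1 alone was called (0.0842% over all genes were called lower). Aplnr, the apelin receptor, was at 37.2, 39.5 and 30.8 TPM in MC56 and 22.5, 21.7 and 28.2 TPM in MAH56 (-0.55 ± 0.17). The median of these genes was -0.11 without MAH562 and -0.05 after GC and length correction. Prnd, which encodes the prion-like protein doppel, was at 5.34, 7.49 and 5.41 TPM in MC56 and 2.16, 2.62 and 1.6 TPM in MAH56, with a difference of -1.18 ± 0.25 (adjusted p = 0.0586).

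Genes of excitation and contraction were mostly near the control level. The sarcomere list had a median of -0.01. Of its 19 genes 2 were higher and 2 lower at an unadjusted p under 0.05 (3.87% and 14.1% over all genes). Myh6, the fast adult myosin, was at 11333, 10459 and 12471 TPM in MC56 and 10107, 9195 and 11444 TPM in MAH56, and overlapped. For calcium handling 7 of 21 were lower at an unadjusted p under 0.05 (14.1% over all genes), with a median of -0.06. Atp2a2, the calcium pump of the sarcoplasmic reticulum, was at 8371, 8231 and 8165 TPM in MC56 and 6839, 6238 and 7935 TPM in MAH56. Hrc, a calcium-binding protein inside the reticulum, was at 1035, 1019 and 1155 TPM in MC56 and 806, 706 and 876 TPM in MAH56. Both had separate groups, with differences of -0.24 ± 0.08 and -0.43 ± 0.10. Ryr2, the release channel, was at 241, 260.2 and 254 TPM in MC56 and 197, 139 and 244 TPM in MAH56, where MAH563 lay within the control range. Without MAH562, 2 of 21 calcium genes stayed under an unadjusted p of 0.05. The median was 0.0048 under median-of-ratios scaling and -0.10 after GC and length correction.

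Adrenergic signaling had 6 of 20 genes lower at an unadjusted p under 0.05 (14.1% over all genes). The median of the 20 was -0.15, which became -0.04 without MAH562 and also after GC and length correction. Arrb1, beta-arrestin, which uncouples receptors, was at 13.2, 11.8 and 10.3 TPM in MC56 and 8.34, 6.89 and 8.21 TPM in MAH56. Pde4b, a phosphodiesterase that breaks down cyclic AMP, was at 22.9, 21.5 and 24.4 TPM in MC56 and 16.1, 14.7 and 16.9 TPM in MAH56. Adra1a, an alpha-adrenergic receptor, was at 19.3, 16.1 and 16.3 TPM in MC56 and 13.9, 9.83 and 14 TPM in MAH56. The groups were separate for all 3 (-0.53 ± 0.11, -0.50 ± 0.11 and -0.44 ± 0.15). In the calcineurin list, 7 of 20 genes were lower at an unadjusted p under 0.05 (14.1% over all genes), among them Nfatc2 and Mef2d, transcription factors of the hypertrophic response. Nfatc2 was at 10.5, 9.05 and 10.9 TPM in MC56 and 7.56, 6.66 and 8.37 TPM in MAH56. Mef2d was at 101, 95.2 and 104 TPM in MC56 and 82.8, 62.8 and 84.9 TPM in MAH56. Kcnj11, the pore of the ATP-sensitive potassium channel, was at 133, 128 and 121 TPM in MC56 and 93.8, 84.6 and 108 TPM in MAH56, with separate groups and a difference of -0.42 ± 0.10. Of the components of the renin-angiotensin system 3 of 13 were lower at an unadjusted p under 0.05 (14.1% over all genes). They were Ace, the AngII-degrading peptidase Enpep (-0.22 ± 0.10) and Agtrap (-0.29 ± 0.09), which promotes internalization of the angiotensin receptor. Agtr1a, that receptor, was at 49.9, 45.9 and 45.6 TPM in MC56 and 55.4, 48.1 and 58.2 TPM in MAH56, with no separation. Edn3, endothelin 3, was at 0.921, 2.02 and 1.89 TPM in MC56 and 2.37, 3.22 and 2.86 TPM in MAH56, above all controls but far below its day 28 mean of 10.9 TPM.

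Energy metabolism showed small differences. The 37 nuclear-encoded genes of respiratory complex I had a median of 0.09 (0.03 after GC and length correction), after -0.14 at day 28, and 33 of 37 were above 0. Of these, 7 had ranges above those of the controls (4.76% over all genes), 3 were higher at an unadjusted p under 0.05 (3.87% over all genes), and 0 were called. Ndufa5 was at 1555, 1587 and 1513 TPM in MC56 and 1693, 1891 and 1688 TPM in MAH56, with every recovered library above the controls and a difference of 0.18 ± 0.06. Its difference of effects was 0.37 (adjusted p = 0.0104), and 9 of 37 genes had a called difference of effects on the positive side (1.13% of all genes). Without MAH562, 0 of 37 stayed under an unadjusted p of 0.05. The respiratory complexes II to V had a median of 0.07, which was 0.0080 under quantile normalization and -0.0011 when MC561 and MAH562 were also left out. Fatty acid genes had a median of -0.04, and 0.03 under median-of-ratios scaling. Acacb, which makes the malonyl-CoA that restrains fatty acid entry into mitochondria, was at 131, 116 and 113 TPM in MC56 and 94.2, 77.3 and 102 TPM in MAH56, with separate groups and a difference of -0.40 ± 0.12.

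Pdk4, the kinase that shuts off pyruvate dehydrogenase in fasting, was at 860.2, 312 and 299 TPM in MC56 and 149, 155 and 157 TPM in MAH56. All recovered libraries were alike and below the controls, but MC561 was far above the other 2 controls. The log2 difference of -1.49 ± 0.53 was not called (adjusted p = 0.158), and in females the corresponding difference of -1.94 was (adjusted p = 0.0405, and 0.0198 without FAH563). Of the glycogen genes, Pygb, brain-type glycogen phosphorylase, was at 511, 511 and 519.9 TPM in MC56 and 440.2, 411 and 421 TPM in MAH56, with separate groups and a difference of -0.28 ± 0.07. Ppard, a lipid-sensing nuclear receptor, was at 30.7, 27 and 30.6 TPM in MC56 and 21.2, 20.6 and 26.9 TPM in MAH56 (-0.36 ± 0.11). Foxo1, a relative of Foxo4, was at 18.3, 15.7 and 15.8 TPM in MC56 and 12.5, 10.8 and 14.4 TPM in MAH56, below all controls, with a difference of -0.38 ± 0.11, and Bnip3, a mitophagy receptor, was on the higher side at 261, 277 and 211 TPM in MC56 and 449, 296 and 305 TPM in MAH56 (0.47 ± 0.16). In the tubulin and dynein list that holds Dynll2, Tuba1a, an alpha-tubulin, was at 134, 119 and 126 TPM in MC56 and 102, 93.7 and 90.5 TPM in MAH56, with separate groups and a difference of -0.40 ± 0.08 (adjusted p = 0.0585).

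Ribosomal protein genes leaned upward. Of 55 cytosolic ones 51 were above 0, with a median of 0.10, 10 were higher at an unadjusted p under 0.05 (3.87% over all genes), 9 had separate ranges above the controls (4.76%), and 0 were called. The number under an unadjusted p of 0.05 ranged from 4 to 19 when single libraries of the 6 were left out, with the highest number without MAH563. Rpl3 was at 246, 205 and 204 TPM in MC56 and 309, 285 and 252 TPM in MAH56, a difference of 0.37 ± 0.10, with separate groups. The 49 mitochondrial ribosomal protein genes had a median of 0.08, and Mrps23 was at 250.4, 257 and 232 TPM in MC56 and 278, 303 and 280.1 TPM in MAH56 (0.22 ± 0.06). Nme1, a cytosolic relative of Nme3, was at 30.1, 27.3 and 28.1 TPM in MC56 and 36.2, 37.1 and 33.8 TPM in MAH56 (0.31 ± 0.11), above all controls, and Nme2 was at 988, 1045 and 949 TPM in MC56 and 1121, 1246 and 994 TPM in MAH56, with overlap. Rps27 had the highest difference with separate groups, but at 2.04, 2.05 and 2.76 TPM in MC56 and 96.8, 30.8 and 3.57 TPM in MAH56 its recovered libraries differed widely among themselves. It has a near-identical copy, and its value is uncertain.

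Several genes outside these lists had separate groups and large differences without a call. Ptgds, prostaglandin D2 synthase, was at 442, 1451 and 777 TPM in MC56 and 1835, 1937 and 1507 TPM in MAH56, a difference of 1.14 ± 0.29 (adjusted p = 0.0703). Gnb3, a G protein beta subunit, was at 8.23, 13.3 and 8.24 TPM in MC56 and 17.2, 19.7 and 14.6 TPM in MAH56. Snai3, a zinc finger repressor, was at 3.08, 4.83 and 7.09 TPM in MC56 and 9.24, 7.67 and 10.3 TPM in MAH56. The libraries of the groups were separate in all 3, by a narrow margin in Ptgds and Snai3. For Gnb3 the difference was 0.76 ± 0.20 (adjusted p = 0.0775) after -0.73 at day 28, and the difference of effects was called (1.48, adjusted p = 0.00462). On the lower side, Dhx9, an RNA helicase, was at 25.2, 29 and 22 TPM in MC56 and 13.5, 10.3 and 14.4 TPM in MAH56, with a difference of -0.95 ± 0.19 (adjusted p = 0.0585) and a called difference of effects (-1.12, adjusted p = 0.0177). Retnla, a product of alternatively activated macrophages and adipose tissue, was at 24, 8.3 and 17.9 TPM in MC56 and 5.85, 8.17 and 7.24 TPM in MAH56, where MC562 lay just above the recovered libraries.

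The same comparison in females used other libraries, but both tests share the spread estimated over all 24 libraries and are not independent. Of the 11 called genes named here, 8 were called in FAH56 against FC56 in the same direction (4.56% of all genes were called lower and 0.544% higher), and the exceptions were Cd74 (-0.40, adjusted p = 0.114), Dusp8 (-0.33, adjusted p = 0.0965) and Ncoa5 (-0.21, adjusted p = 0.0971). Vash1 had female means of 14.8 ± 0.705 TPM (SD) in FC56 and 6.39 ± 1.3 TPM in FAH56, a difference of -1.11 (adjusted p = 0.000536). Litaf had a female difference of -0.56 (adjusted p = 0.00176) and Ces1d one of -0.57 (adjusted p = 0.00678). Whether the effect differed between the sexes was tested over all genes, and 0 of 13058 were called (0.00%), with 459 (3.52%) at an unadjusted p under 0.05 and a lowest adjusted p of 0.478, by limma. That lowest value belonged to Hr, a corepressor of nuclear receptors, at 13.9, 11.4 and 13.2 TPM in MC56 and 10.5, 9.54 and 11.2 TPM in MAH56 in males and at 18.6 ± 0.761 TPM (SD) in FC56 and 8.59 ± 0.979 TPM in FAH56 in females. The MHC class II list had a female median of -0.30 with 0 of 9 called, and the sexes were not shown to differ in any of its genes. Without FAH563, the female library with Y-linked reads, the female comparison called 4 of the 11 genes (Vash1, Litaf, Ces1d and Nme3) in place of 8. The number of genes called between the sexes was then again 0, with 419 at an unadjusted p under 0.05, and the class II list had a female median of -0.22.

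**Figure D5:**
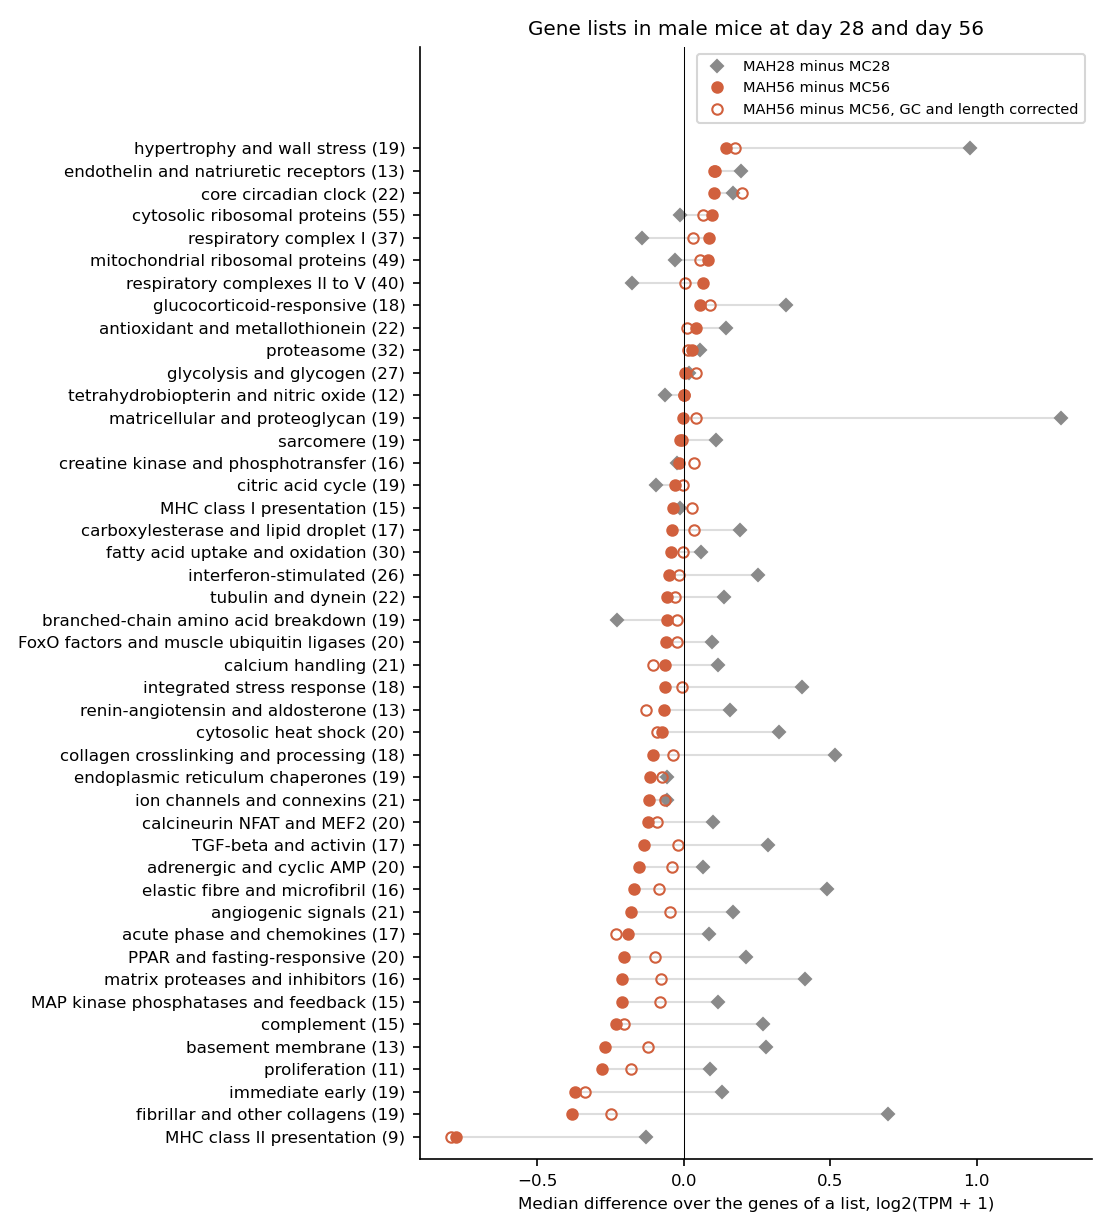
Median log2 difference (x axis, log2(TPM + 1)) over the measured genes of each list with at least 8 of them, cell type markers left out (y axis, number of genes in brackets), for MAH28 minus MC28 (grey diamonds) and MAH56 minus MC56 as measured (filled circles) and after GC and length correction (open circles). Collagens move from 0.70 at day 28 to -0.38 at day 56, MHC class II presentation stands lowest of the lists drawn at -0.78, and wall stress genes move from 0.98 to 0.14.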

How the data were processed

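Left ventricle RNA of 24 C57Bl6/J mouse libraries (8 groups of 3) was extracted with TRIzol and prepared with a stranded Illumina mRNA kit. The authors deposited 1 table of TPM for 24972 genes. The processing notes name STAR, Salmon and mm9, without versions. Each column sums to 1e+06, so depth is unknown, and 0 columns were left unmapped. TPM is a relative measure, so a rise in abundant genes lowers all others, and 0 of 13 mitochondrially encoded genes were in the table.

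Genes with at least 1 TPM in at least 3 of the 24 libraries (13058) were fitted on log2(TPM + 1), 1 mean per group, with limma 3.58.1 in R 4.3.3 (intensity trend, two-sided, 16 residual degrees of freedom, 99.3% of genes with GC content and length for the correction). P-values were adjusted by Benjamini-Hochberg over all genes tested, and genes were called at an adjusted p under 0.05. Errors are standard errors of the log2 difference or SD of TPM. Since the labels do not tie libraries to separate animals, p-values reflect the spread among these libraries alone. The fold changes of low genes are understated on this scale. The fit was tested on simulated data.

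The genes described and the 61 lists were chosen with earlier results of these data known, so lists are described and not tested. Named were all called genes, the 10 highest and 10 lowest differences with separate ranges and at least 5 TPM, up to 4 genes of each list by p (all in lists of at most 13), the 10 most significant genes of each direction for differences of effects, and set stress genes. The results for 1 called gene and for some other genes of this rule are not reported here. Alternatives were other pseudocounts (0.1 and 5), filters, scalings, library weights, fits on fewer libraries, a replicate block, the tags in place of the titles and leaving out each of the 24 libraries. Leaving out MC561 and MAH562 together, and FAH563 from the female comparison, was added after seeing the data. Replicate numbers come from the titles. The deviations of same-numbered MC56 and MAH56 libraries correlated weakly, which cannot exclude a shared batch. Promoters are from RefSeq on GRCm38.p6. Figures were drawn with matplotlib 3.10.9.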

Additional observations from a re-analysis of the deposited data

Results flagged for a closer look

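The difference between the day 56 and the day 28 effect in males was called for 1088 genes, and 20 of them are given here because their adjusted p was lowest in each direction. The quantity is the log2 difference MAH56 minus MC56 less the log2 difference MAH28 minus MC28, and the direction is opposite to the day 28 effect in each. More negative at day 56 were Trim72 (-0.69), Flnc (-1.30), Cd34 (-0.77), Hspa1l (-1.62), Uck2 (-1.52), Dnaja4 (-0.67), Mllt11 (-0.80), Bgn (-1.56), Cmklr1 (-1.50) and F2rl1 (-1.43). More positive at day 56 were Doc2g (0.89), Gchfr (1.19), Gcdh (0.53), Ldhb (0.46), Myl2 (0.52), Scgb1c1 (1.75), Lrrc4b (1.52), H2-Ke6 (0.62), Gstk1 (0.59) and Cabcoco1 (0.79). Of these 20, Trim72, Cd34, Dnaja4, Cmklr1, F2rl1, Doc2g and Cabcoco1 had MC56 and MAH56 libraries that did not overlap at day 56. Over all genes tested, 15.0% had ranges wholly below the controls and 4.76% wholly above. Since the 20 were chosen by a difference that contains the day 56 values, separation follows in part from the choice.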

How the results depend on the processing

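The number of genes called between MAH56 and MC56 was 12 and did not hold its size. It was 8 without a filter or without the intensity trend, 42 with a filter at TPM 5, 9 under median-of-ratios scaling or quantile normalization, 32 (10 higher, 22 lower) after GC and length correction, 3086 (1329 higher, 1757 lower) with array weights, and 2558 with the tags in place of the titles. It was 0 with the 12 male libraries (1891 genes at an unadjusted p under 0.05), with only the groups compared (1528), without MC561 and MAH562 (762) and with quantile normalization added (805). Leaving out single libraries gave 0 (without MAH562) to 210 (without MAH563), with 4 without MC561, 50 without MC562, 5 without MC563 and 1 without MAH561. The difference from day 28 was called for 1088 genes, and for 652 under median-of-ratios scaling, 632 under quantile normalization, 671 after GC and length correction, 2870 with array weights, 426 with the 12 male libraries or only the groups compared, 228 without MC561 and MAH562 and 126 with quantile normalization added. Leaving out single libraries gave 419 (without MC282) to 1247 (without MAH563). It was 432 without MAH562, 679 without MC561, 509 without MAH282 and 451 without MAH283. The difference between the sexes was called for 0 genes, 1 without a filter, 41 with array weights, and 0 to 1 without single libraries.

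Same-numbered libraries of MC56 and MAH56 had deviations from their group means that correlated at 0.04, -0.08 and 0.09. With 3 libraries a group, these values cannot exclude a pairing or batch that follows the replicate numbers. With the replicate block the comparison of MAH56 with MC56 called 241 genes, and 68 together with GC and length correction, and the difference from day 28 called 1416 and 849.

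Over 40 alternatives other than the tags, the called genes named here kept their direction in every one and were called again in varying numbers (Dynll2 in 35, Cd74 in 32, Dusp8 in 34, Vash1 in 33, Litaf in 32, Ces1d in 32, Fam98b in 25, Nme3 in 19, Foxo4 in 22, Ncoa5 in 19 and Lsm14b in 14). In many of these the direction could not turn, because the difference itself stays the same. These are the fits without a library outside MC56 and MAH56, and those that change only the filter, the trend, the replicate block or the groups fitted. With the tags in place of the titles, which exchanges MC56 with MAH28, the direction turned for Ces1d 0.18, Thbs4 -2.21, Cilp -2.23, Ltbp2 -2.14, Acta1 -1.85, Edn3 -1.63, Postn -1.95, Gcdh 0.52, Mllt11 -0.82, Ankrd1 -1.44 and Csrp3 -0.29 (log2 difference under the tags). The cause of these changes was not tested. Depth is unknown, and 3 libraries a group limit the precision.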

Other observations

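Genes of blood and of the heart surface lay on the lower side, with 0 called. Of 8 measured erythroid genes all 8 had negative differences, with a median of -0.63 and 6 lower at an unadjusted p under 0.05 (14.1% over all genes). Alas2, which starts haem synthesis in red cells, was at 19.8, 18 and 13.3 TPM in MC56 and 8.81, 8.23 and 11.2 TPM in MAH56. The haemoglobin genes share reads between near-identical copies and are given only as a group. Of 8 mesothelial markers 2 were measured, and the list summed to 10.3, 10.3 and 10.1 TPM in MC56 and 3.09, 4.37 and 4.42 TPM in MAH56. Wt1, a transcription factor of the epicardium, was at 4.27, 3.53 and 4.67 TPM in MC56 and 2.14, 2.69 and 2.47 TPM in MAH56, and Upk3b, a surface protein of mesothelium, at 2.21, 2.37 and 1.87 TPM in MC56 and 0.132, 0.613 and 0.154 TPM in MAH56. Each recovered library was below each control in all 3 genes, and none was called. Upk3b reached 1 TPM only in the 3 MC56 libraries, so its separation follows from the filter and is no result.

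Of 11 measured proliferation genes 10 had negative differences, with a median of -0.28 that was -0.09 without MC561 and MAH562. Ube2c, a ubiquitin-conjugating enzyme of mitosis, was at 3.03, 3 and 1.77 TPM in MC56 and 0.74, 0.693 and 1.54 TPM in MAH56, and Ccnd1, cyclin D1, at 48.7, 54.2 and 41 TPM in MC56 and 37.4, 32.2 and 33.1 TPM in MAH56. The circadian clock list had a median of 0.10, and Dbp, a clock output gene, was at 176, 25.7 and 137 TPM in MC56 and 198, 176 and 146 TPM in MAH56, where MC562 was far below the other 5 libraries. Ciart, a clock repressor, was lowest in the same library, at 13.3, 1.82 and 8.18 TPM in MC56 and 20.3, 17.8 and 9.86 TPM in MAH56.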
